A study of Danio rerio with 14 samples.

Results

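The genes described here are 10 zebrafish genes that move calcium into, within and out of the cardiac sarcoplasmic reticulum and across the cell membrane beside it: *ryr2a*, *ryr2b*, *atp2a2a*, *atp2a2b*, *pln*, *slc8a1a*, *slc8a1b*, *casq1b*, *casq2* and *trdn*. They were chosen by name from the gene column of the count table, which held all 10 among its 39289 features, and all 10 were among the 17437 genes whose reads were numerous enough to be tested. RNA-seq was run on 14 libraries, each from pooled ventricles of adult fish of the TL1 strain without drug treatment. The TMEM43-P111L group had 3 libraries (1 from fish of 5 months, 1 of 19 months and 1 of 20 months) and the TMEM43-S358L group had 4 (3 of 5 months and 1 of 19 months). The TMEM43-WT group had 4 libraries (5, 18, 19 and 20 months). The NTG group, non-transgenic fish labelled wild-type, had 3 libraries (2 of 5 months and 1 of 21 months). In each transgenic line the cardiomyocyte promoter *myl7* drove human TMEM43 linked to eGFP, either as the wild-type protein or with the exchange p.P111L or p.S358L. Each construct was represented by 1 transgenic line, so that the construct and its insertion cannot be told apart, and reads on the human transgene were not analysed here.

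In a ventricular cardiomyocyte, calcium entering through L-type channels opens ryanodine receptors, which release a larger store of calcium from the sarcoplasmic reticulum and start contraction. SERCA pumps return calcium to the store against the brake of phospholamban, the sodium calcium exchanger removes the remainder from the cell, and calsequestrin holds calcium inside the store, tethered to the release channel by triadin. Several of these genes exist as a pair of copies in zebrafish. TMEM43 is a membrane protein of the inner nuclear envelope and endoplasmic reticulum, and its p.S358L variant causes arrhythmogenic cardiomyopathy in people. Inherited changes of the human ryanodine receptor, calsequestrin, triadin and phospholamban genes also cause arrhythmia or cardiomyopathy.

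Library totals were 20621770 to 32418475 reads with a median of 22384025 reads, of which 0.501% to 0.909% fell on the 10 genes. The tissue label was checked against 8 cardiomyocyte markers, which summed to 57609 to 86123 CPM (read counts scaled to a common library total, with totals corrected by trimmed means). Within this list, *nkx2.5* was at 186 to 212 CPM in NTG and at most at 178 CPM in any line library. *myl7* averaged 16400 CPM in NTG against 12680, 12290 and 13403 CPM in TMEM43-P111L, TMEM43-S358L and TMEM43-WT. In the same order, *vmhc* averaged 1255 CPM against 1004, 957 and 825 CPM. *cmlc1* and *tnnt2a* also averaged highest in NTG, while *tnnc1a* and *tbx5a* averaged highest in TMEM43-P111L. *actc1a* averaged 24029 CPM in NTG against 23959, 29579 and 26803 CPM in TMEM43-P111L, TMEM43-S358L and TMEM43-WT. The atrial list summed to 1111 to 1732 CPM over the same libraries, mostly from *nppa*. Its *myh6* averaged 50.9, 46.2 and 31.8 CPM in TMEM43-P111L, TMEM43-S358L and TMEM43-WT, against 13.4 CPM in NTG. *nr2f1a* averaged 6.53, 6.32 and 5.24 CPM against 3.42 CPM, and *nppa* 1439, 1445 and 1399 CPM against 1352 CPM. Over all 17437 genes, the share that differed from NTG was 7.59% for TMEM43-P111L, 6.15% for TMEM43-S358L and 8.34% for TMEM43-WT. A gene was called when its Benjamini-Hochberg adjusted p in edgeR's quasi-likelihood test was under 0.05 and its log2 fold change was 0.05 or more in either direction. The 3 line contrasts used the same NTG libraries. In bulk ventricles, fewer cells of a type and less RNA per cell cannot be told apart.

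One copy of each duplicated gene carried nearly all of the reads. Divided by exon length so that genes can be compared, the mean level over all libraries was 693 CPM per kilobase for *atp2a2a*, 500.2 for *pln*, 304 for *casq2*, 118 for *slc8a1a*, 64.8 for *casq1b*, 12.5 for *ryr2b*, 12.2 for *atp2a2b*, 10.9 for *trdn*, 0.0768 for *ryr2a* and 0.0721 for *slc8a1b*. The SERCA pump *atp2a2a* thus stood first, above its inhibitor *pln* in 13 of 14 libraries, and the steps to *casq2*, *slc8a1a*, *casq1b* and *ryr2b* were in the same order in all 14 libraries. *ryr2b*, *atp2a2b* and *trdn* formed a group whose order was not fixed: *ryr2b* exceeded *atp2a2b* in 7 of 14 libraries and *atp2a2b* exceeded *trdn* in 9. *ryr2a* and *slc8a1b* came last in every library and exceeded each other about equally often, *ryr2a* being the higher in 8 of 14. The steadiest gene was *pln*, with a coefficient of variation of 15.8% over all libraries, and among the 8 genes other than *ryr2a* and *slc8a1b* the widest was *atp2a2b*, with 39.5% and a 6.80-fold span of levels.

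**Figure D1:**
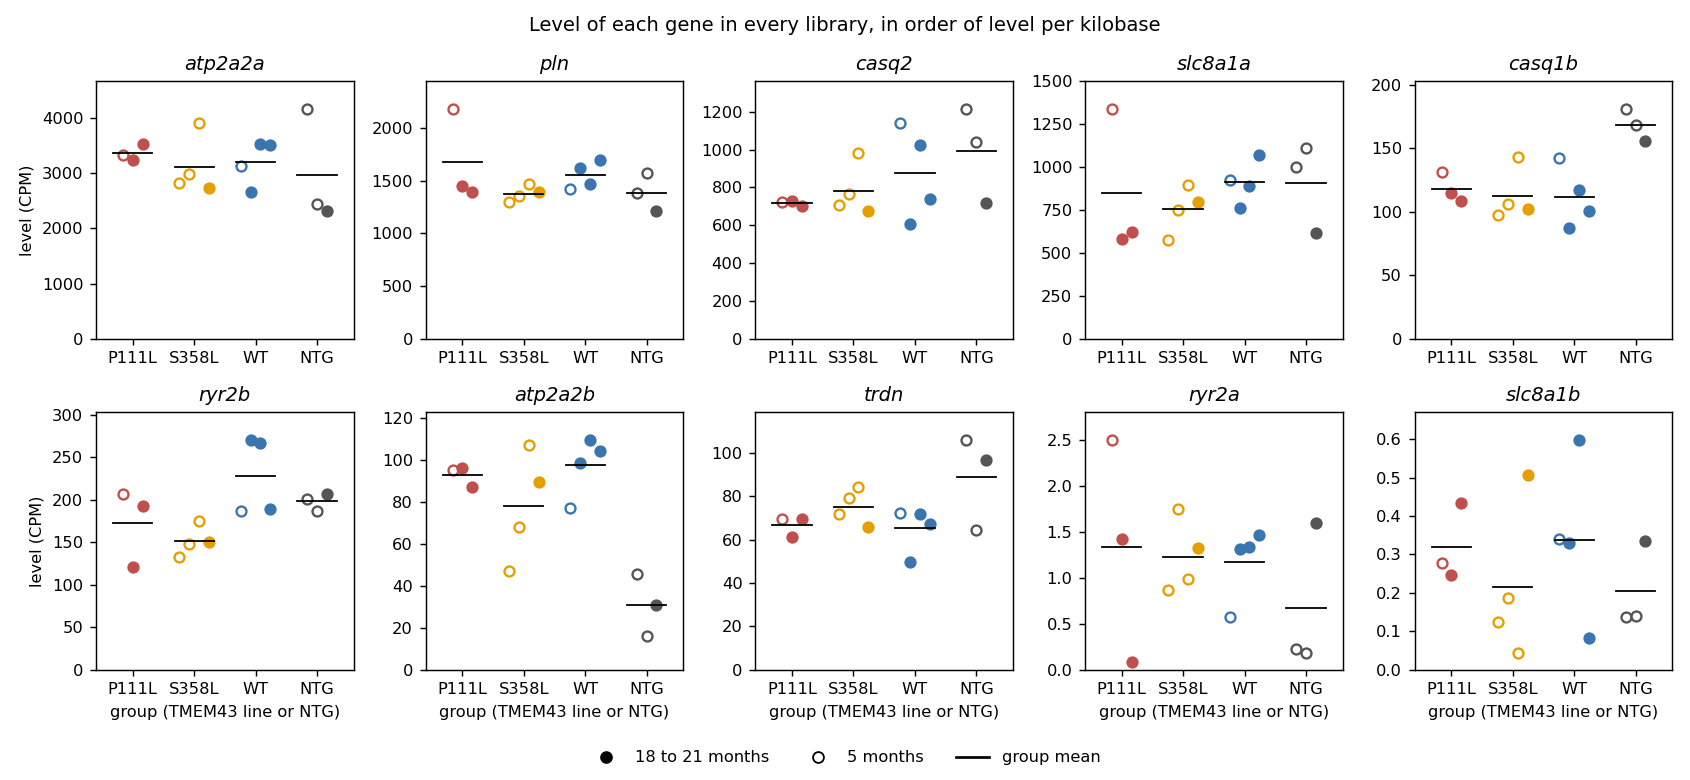
Level of each gene in CPM (vertical axes from 0, each with its own scale) in every library of the TMEM43-P111L, TMEM43-S358L and TMEM43-WT lines and of NTG; filled points are libraries of 18 to 21 months, open points of 5 months, and lines are group means. *atp2a2b* lies between 46.9 and 109.5 CPM in the 3 lines and between 16.1 and 45.6 CPM in NTG, and *casq1b* is lower in all line libraries than in all NTG libraries.

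The minor SERCA copy *atp2a2b* was the 1 gene of the 10 that passed the test between lines and controls, and it was higher in all 3 lines. *atp2a2b* (gene ID 568265, GRCz11 chromosome 21, 17050968 to 17108484, plus strand) encodes a calcium pump of the SERCA2 type. It was measured at 95.2, 95.9 and 87.0 CPM in TMEM43-P111L, at 46.9, 68.2, 107 and 89.2 CPM in TMEM43-S358L, at 77.2, 98.7, 109.5 and 104 CPM in TMEM43-WT, and at 45.6, 16.1 and 30.9 CPM in NTG. All 11 line libraries were above all 3 NTG libraries, the nearest being a TMEM43-S358L library of 5 months at 46.9 CPM against an NTG library of the same age at 45.6 CPM. Group means were 92.7 ± 4.93 CPM in TMEM43-P111L (SD, n = 3), 77.8 ± 26.0 CPM in TMEM43-S358L (n = 4), 97.4 ± 14.2 CPM in TMEM43-WT (n = 4) and 30.9 ± 14.7 CPM in NTG (n = 3).

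The log2 fold change of *atp2a2b* against NTG was 1.59 (SE 0.33, edgeR adjusted p = 0.0102) in TMEM43-P111L, a 3.0-fold higher level. It was 1.33 (SE 0.31, edgeR adjusted p = 0.0200) in TMEM43-S358L, 2.52-fold. It was 1.66 (SE 0.31, edgeR adjusted p = 0.00595) in TMEM43-WT, 3.16-fold with a 95% interval of 1.99 to 5.00. Between the lines, *atp2a2b* did not pass the threshold, and the 95% interval of the TMEM43-P111L difference from TMEM43-WT ran from -0.70 to 0.56 on the log2 scale. Within libraries of 18 to 21 months alone the log2 fold changes against NTG were 1.55, 1.53 and 1.75 for TMEM43-P111L, TMEM43-S358L and TMEM43-WT (edgeR adjusted p = 0.00853, 0.0328 and 0.00409). NTG had 1 library of this age and TMEM43-S358L had 1, so that these p-values take the spread of the lone libraries from the other groups.

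Within libraries of 5 months alone the estimates for *atp2a2b* were 1.63, 1.26 and 1.32 and none passed the threshold (edgeR adjusted p = 0.343, 0.291 and 0.370), with 1 TMEM43-P111L and 1 TMEM43-WT library, whose spread was likewise taken from the other groups. The TMEM43-S358L difference also missed the threshold without NTG replicate 3 (log2 fold change 1.02, edgeR adjusted p = 0.0661), without NTG replicate 4 (1.33, 0.0502) or without TMEM43-S358L replicate 3 (1.14, 0.0595). The sum of the epicardial marker list (4 of 4 genes measured, none at 0 in any library) followed the same grouping. It was 51.0 to 62.7 CPM in TMEM43-P111L, 45.0 to 59.1 CPM in TMEM43-S358L and 44.0 to 60.0 CPM in TMEM43-WT, against 25.7 to 34.9 CPM in NTG. The grouping of the sum came mainly from *tcf21*, which averaged 35.0, 31.8 and 36.4 CPM in the same lines against 14.6 CPM in NTG. *tbx18* averaged 14.4, 12.2 and 8.86 CPM in the lines against 7.13 CPM in NTG. *wt1b* averaged 5.56, 5.09 and 4.40 CPM in the lines against 5.16 CPM in NTG, and *wt1a* averaged 2.45, 2.35 and 1.02 CPM against 2.62 CPM. The 6 leukocyte markers summed to 45.6 to 127 CPM, 55.7 to 63.0 CPM and 72.3 to 119 CPM in the same lines, against 35.0 to 57.3 CPM in NTG. Of the atrial markers, *nppa* differed little between groups, while *myh6* averaged 50.9, 46.2 and 31.8 CPM in the same lines against 13.4 CPM in NTG. For *myh6*, TMEM43-S358L (from 11.2 CPM) overlapped NTG (up to 18.5 CPM). Of the smooth muscle markers, *cnn1b* averaged 50.9, 90.4 and 85.6 CPM in the same lines against 41.1 CPM in NTG, and *myh11a* and *elnb* also averaged lowest in NTG. *acta2* and *tagln* averaged lowest in TMEM43-P111L, where the sum of the list was below that of every NTG library. The part of epicardial, leukocyte, atrial or smooth muscle cells in the *atp2a2b* difference was not tested.

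The higher level of *atp2a2b* was a small part of the SERCA2 transcripts. It took 2.77%, 2.87% and 2.41% of the reads on *atp2a2a* and *atp2a2b* together in TMEM43-P111L, and 1.63%, 2.23%, 2.65% and 3.17% in TMEM43-S358L. The share was 2.40%, 3.57%, 3.0% and 2.88% in TMEM43-WT, against 1.08%, 0.656% and 1.31% in NTG. The lowest line library, a TMEM43-S358L library with a 95% Wilson interval of 1.54% to 1.73%, was thus above the highest NTG library, with 1.22% to 1.41%. These intervals cover counting error only. How reads common to both copies were assigned is not given in the sources used here. The deposited value of *atp2a2b* was a whole number in 9 of 14 libraries and that of *atp2a2a* in 2, so part of the *atp2a2a* reads had been split between places.

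**Figure D2:**
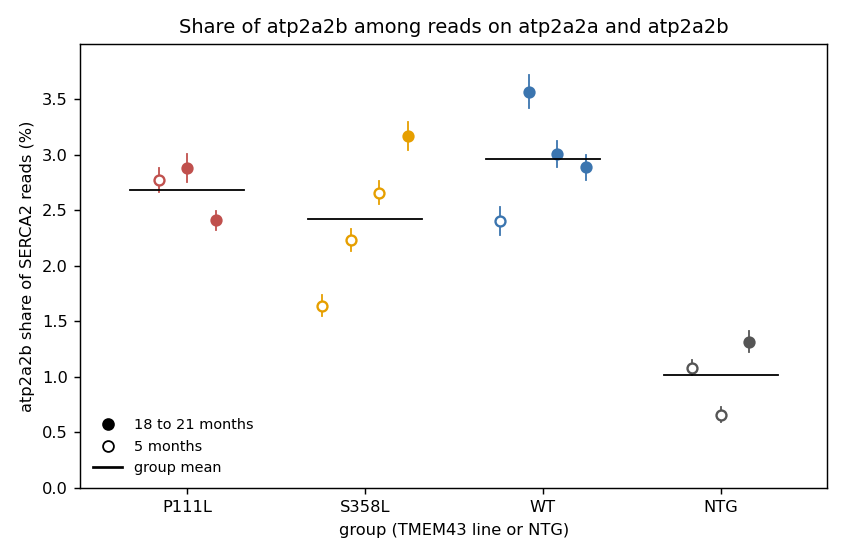
Percentage of the reads on *atp2a2a* and *atp2a2b* that lay on *atp2a2b* (vertical axis, from 0) in each library of the 3 TMEM43 lines and NTG; vertical bars are 95% Wilson intervals, lines are group means, filled points are 18 to 21 months and open points 5 months. The lines lie between 1.63% and 3.57% and NTG between 0.656% and 1.31%.

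The major pump gene and its inhibitor did not pass the test in any line against NTG. *atp2a2a* (gene ID 393940, chromosome 8, 11687231 to 11744993, plus strand) had 3339, 3239 and 3527 CPM in TMEM43-P111L, 2822, 2993, 3919.6 and 2729.7 CPM in TMEM43-S358L, and 3139.5, 2668, 3536 and 3510.0 CPM in TMEM43-WT, against 4175, 2438 and 2321 CPM in NTG. The NTG libraries held both the highest and the lowest values of the 14. The log2 fold changes against NTG were 0.18, 0.07 and 0.11 for TMEM43-P111L, TMEM43-S358L and TMEM43-WT, and the widest 95% interval ran from -0.31 to 0.67. *pln* (gene ID 555548, chromosome 20, 41910845 to 41926494, minus strand) encodes phospholamban, the small membrane protein that slows SERCA2. It had 2185, 1448 and 1392 CPM in TMEM43-P111L, 1294, 1353, 1470.0 and 1389.6 CPM in TMEM43-S358L, and 1424, 1619, 1469 and 1697 CPM in TMEM43-WT, against 1379.6, 1569 and 1208 CPM in NTG. One TMEM43-P111L library of 5 months stood above all others, and the groups overlapped otherwise. The log2 fold changes of *pln* were 0.27, -0.01 and 0.16, with 95% intervals of -0.14 to 0.69, -0.40 to 0.38 and -0.23 to 0.56. Per kilobase, the ratio of *pln* to both SERCA2 copies was 0.749 ± 0.205 in TMEM43-P111L, 0.675 ± 0.0825 in TMEM43-S358L, 0.734 ± 0.122 in TMEM43-WT and 0.758 ± 0.241 in NTG (SD, n = 3, 4, 4 and 3), and the ranges of all 4 groups overlapped.

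Of the *ryr2* pair of release channels, *ryr2b* carried nearly all of the reads and *ryr2a* was near the limit of detection. *ryr2b* (gene ID 568463, chromosome 17, 20013995 to 20118243, minus strand) had 206, 121 and 192 CPM in TMEM43-P111L, 133, 148, 175 and 151 CPM in TMEM43-S358L, 187, 271, 267 and 189 CPM in TMEM43-WT, and 201, 187 and 206 CPM in NTG. All 4 TMEM43-S358L libraries were below all NTG and all TMEM43-WT libraries. The difference from NTG did not pass the threshold (log2 fold change -0.39, SE 0.20, edgeR adjusted p = 0.281), nor did that from TMEM43-WT (-0.59, SE 0.19, unadjusted p = 0.00685, edgeR adjusted p = 0.158). *ryr2a* (gene ID 100126126, chromosome 12, 47117825 to 47364956, plus strand) was counted at 3.33 to 63 reads a library. It reached 2.5, 1.43 and 0.0866 CPM in TMEM43-P111L, 0.865, 1.75, 0.986 and 1.32 CPM in TMEM43-S358L, and 0.569, 1.31, 1.34 and 1.47 CPM in TMEM43-WT, against 0.229, 0.186 and 1.59 CPM in NTG. In NTG a single library at 1.59 CPM raised the group mean, and the TMEM43-P111L libraries ran from 0.0866 to 2.5 CPM. The 95% intervals of the log2 fold changes against NTG spanned -0.96 to 2.82 over the 3 lines. *ryr2a* gave 0.0450% to 1.2% of the reads on the pair.

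Among the sodium calcium exchangers, *slc8a1a* was abundant and *slc8a1b* hardly measured. *slc8a1a* (gene ID 553489, chromosome 11, 30532597 to 30611871, minus strand) encodes the exchanger that the zebrafish embryonic heart needs for a regular beat. It had 1341, 582 and 619 CPM in TMEM43-P111L, 574, 747, 897 and 796 CPM in TMEM43-S358L, and 925, 759, 889 and 1069 CPM in TMEM43-WT, against 999.8, 1112 and 618 CPM in NTG. The TMEM43-P111L library of 5 months was the highest of all and the other TMEM43-P111L libraries were among the lowest, so the line overlapped every other group. The log2 fold changes against NTG were -0.10, -0.27 and 0.00 for TMEM43-P111L, TMEM43-S358L and TMEM43-WT, with standard errors of 0.30, 0.28 and 0.28. *slc8a1b* (gene ID 797199, chromosome 17, 22379312 to 22501008, plus strand) had 1 to 15 reads a library and at most 0.599 CPM, and a difference between groups was not detectable at this depth.

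The luminal calcium buffers and their anchor had lower estimates in every line than in NTG, but none passed the threshold. *casq1b* (gene ID 767757, chromosome 7, 73717961 to 73752789, minus strand) encodes a calsequestrin of the type found in skeletal muscle. It had 131, 115 and 108 CPM in TMEM43-P111L, 97.1, 106, 143 and 102 CPM in TMEM43-S358L, and 142, 87.3, 117 and 100.2 CPM in TMEM43-WT, against 181, 168 and 156 CPM in NTG. Every line library was below every NTG library. The log2 fold changes were -0.51 (SE 0.20, edgeR adjusted p = 0.138) in TMEM43-P111L, -0.59 (SE 0.19, edgeR adjusted p = 0.0751) in TMEM43-S358L and -0.59 (SE 0.19, edgeR adjusted p = 0.0625) in TMEM43-WT. The TMEM43-S358L difference passed the threshold when age group was added as a covariate (log2 fold change -0.61, edgeR adjusted p = 0.0383) or without TMEM43-S358L replicate 3 (-0.73, 0.0499), and the TMEM43-WT difference without TMEM43-WT replicate 1 (-0.72, 0.0322).

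The fast skeletal marker *ckmb*, a muscle creatine kinase, was at 43.0, 35.4 and 37.5 CPM in TMEM43-P111L, at 39.8 to 71.8 CPM in TMEM43-S358L and at 52.7 to 115 CPM in TMEM43-WT, against 381, 1214 and 287 CPM in NTG. It thus followed the same grouping as *casq1b*. The skeletal list (11 of 20 genes measured) summed to 3434 to 4561 CPM, 3210 to 6625 CPM and 3241 to 5319 CPM in the 3 lines, against 3826 to 6113 CPM in NTG, mostly from *ckma*. The defining skeletal markers *mylpfa* and *tnnt3b* reached at most 0.952 and 0.692 CPM in any library and were at 0 in 2 of the 3 NTG libraries each. *pvalb1* and *atp2a1* also averaged lowest in NTG. Others of the list averaged highest in NTG: *pvalb3* (11.1 CPM, against 0.203, 9.83 and 2.46 CPM in TMEM43-P111L, TMEM43-S358L and TMEM43-WT), *pvalb2* (2.74 against 0.208, 1.03 and 0.146), *actn3a* (5.96 against 2.03, 2.33 and 1.96) and *actn3b*. The NTG range of *actn3a* was 0.698 to 11.9 CPM. The part of *ckmb*-bearing cells in the *casq1b* difference was not tested.

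*casq2* (gene ID 114410, chromosome 9, 33097293 to 33107154, minus strand), the cardiac calsequestrin, had 725, 729.8 and 704 CPM in TMEM43-P111L, 707, 765, 984 and 673 CPM in TMEM43-S358L, and 1141, 606, 1025 and 739 CPM in TMEM43-WT, against 1216, 1039.8 and 719.6 CPM in NTG. The TMEM43-P111L libraries lay close together, while TMEM43-WT and NTG spread widely. The log2 fold changes against NTG were -0.46, -0.34 and -0.18 for TMEM43-P111L, TMEM43-S358L and TMEM43-WT (SE 0.25, 0.23 and 0.23, edgeR adjusted p = 0.282, 0.414 and 0.695). *trdn* (gene ID 100038781, chromosome 20, 40150583 to 40250884, plus strand), which encodes triadin, had 69.4, 61.2 and 69.4 CPM in TMEM43-P111L, 71.8, 79.4, 84.3 and 65.8 CPM in TMEM43-S358L, and 72.4, 49.9, 71.8 and 67.3 CPM in TMEM43-WT, against 106, 64.4 and 96.9 CPM in NTG. One NTG library lay inside the range of the lines. The log2 fold changes of *trdn* were -0.42, -0.24 and -0.45 (SE 0.21, 0.19 and 0.19, edgeR adjusted p = 0.229, 0.488 and 0.154).

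Counted over the 10 genes, 1 was higher and none lower in each line than in NTG, *atp2a2b* each time, beside 7.59% of all genes called in TMEM43-P111L, 6.15% in TMEM43-S358L and 8.34% in TMEM43-WT. DESeq2 also called 1 gene of the 10 in each line. At an unadjusted p under 0.05 edgeR found 2 in TMEM43-P111L, 2 in TMEM43-S358L and 3 in TMEM43-WT. Of all tested genes, 23.6%, 22.6% and 24.7% were under this limit in the same lines. The libraries of line and NTG did not overlap for 2 of 10 genes in TMEM43-P111L (*atp2a2b* and *casq1b*), 3 in TMEM43-S358L (with *ryr2b*) and 2 in TMEM43-WT, beside 27.1%, 19.2% and 21.7% of all genes in these lines. The median log2 fold change of the 10 genes was 0.04, -0.13 and 0.14 in TMEM43-P111L, TMEM43-S358L and TMEM43-WT, beside -0.0027, 0.0050 and -0.011 for all tested genes.

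**Figure D3:**
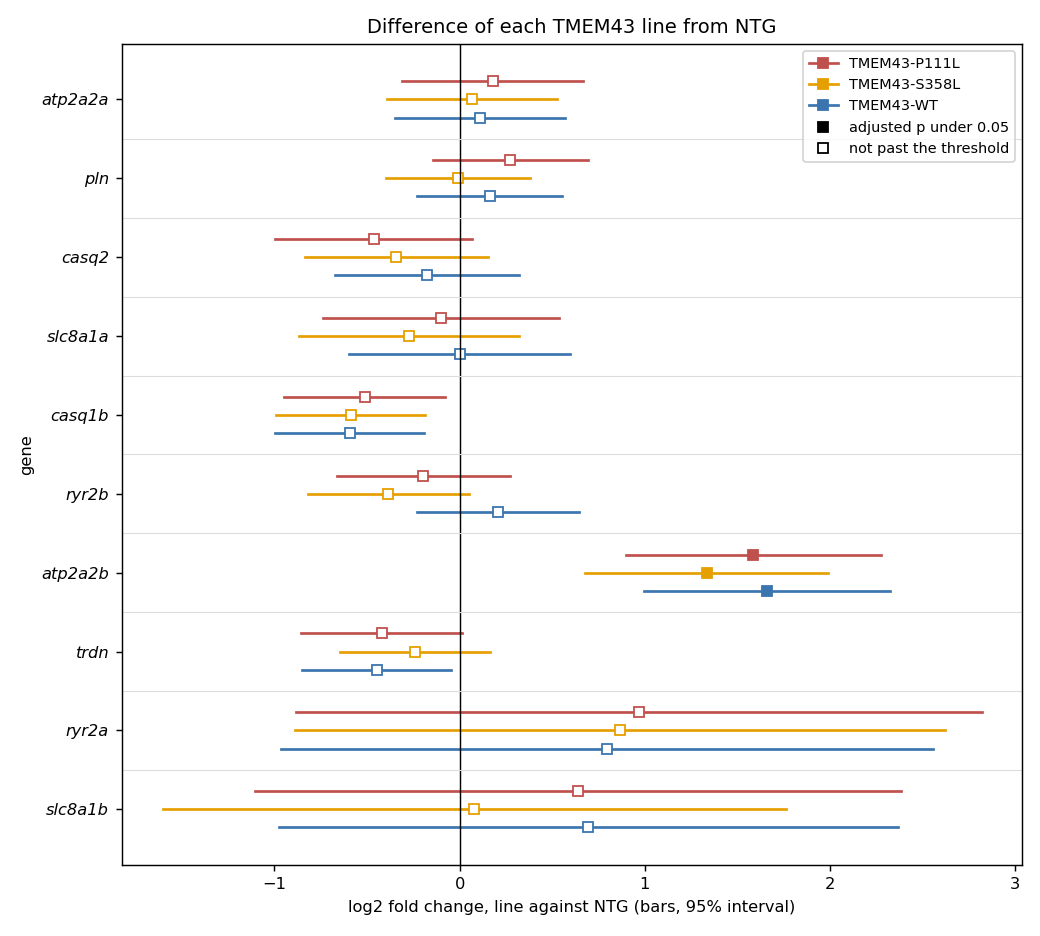
Log2 fold change against NTG (horizontal axis) of the 10 genes (rows) in TMEM43-P111L, TMEM43-S358L and TMEM43-WT from edgeR, with bars for the 95% interval and filled squares for an adjusted p under 0.05. The filled squares are the 3 of *atp2a2b*, at 1.59, 1.33 and 1.66, while the intervals of *casq1b* lie below 0 with open squares and those of *ryr2a* and *slc8a1b* are the widest.

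The variant lines were also compared with TMEM43-WT, expressed from the same promoter, and with each other, and edgeR called 0 of the 10 genes in these 3 comparisons. The study measured unequal transgene mRNA in its lines, lower in both variant lines than in TMEM43-WT. By Western blot it found less of the TMEM43-eGFP protein in TMEM43-S358L than in TMEM43-WT, and a similar level in TMEM43-P111L. A variant and the mRNA level of its transgene thus cannot be told apart here, nor can p.S358L and its lower protein level. In TMEM43-S358L against TMEM43-WT, 1 of the 10 had an unadjusted p under 0.05 (*ryr2b*), DESeq2 called 0, and 1.62% of all genes were called. In TMEM43-P111L against TMEM43-WT none had an unadjusted p under 0.05, DESeq2 called 0, and 0.826% of all genes were called. In TMEM43-P111L against TMEM43-S358L none had an unadjusted p under 0.05, DESeq2 called 0, and 1.04% of all genes were called. Apart from *ryr2a* and *slc8a1b*, the estimates between lines lay between -0.59 and 0.28 on the log2 scale. The intervals were wide: for *slc8a1a* in TMEM43-S358L against TMEM43-WT they allowed -0.83 to 0.28.

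Age was the second factor of the design, with 7 libraries of 18 to 21 months and 7 of 5 months, unevenly spread over the genotypes. With genotype as a covariate, edgeR called 0 of the 10 genes by age, beside 0.969% of all genes. DESeq2 also called 0. In edgeR 3 of the 10 had an unadjusted p under 0.05, beside 13.5% of all genes, all with lower estimates at 18 to 21 months. This count was 2 with RLE size factors or with DESeq2, and ranged over 0 to 3 when each library was left out. It was 0 without NTG replicate 4, without TMEM43-WT replicate 4 or without TMEM43-S358L replicate 3. *slc8a1a* was at 582, 759 and 1069 CPM (lowest, median and highest) in libraries of 18 to 21 months and at 574, 925 and 1341 CPM in those of 5 months (log2 fold change -0.44, SE 0.19, unadjusted p = 0.0365, edgeR adjusted p = 0.326). Without TMEM43-P111L replicate 2, the library of 5 months at 1341 CPM, this estimate was -0.19.

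*casq2* was at 606, 719.6 and 1025 CPM at 18 to 21 months and at 707, 984 and 1216 CPM at 5 months (log2 fold change -0.37, SE 0.16, edgeR adjusted p = 0.313). *casq1b* was at 87.3, 108 and 156 CPM at 18 to 21 months and at 97.1, 142 and 181 CPM at 5 months (log2 fold change -0.27, SE 0.13, edgeR unadjusted p = 0.0499, edgeR adjusted p = 0.370). For both, the ages overlapped. In the test of whether the age difference depended on genotype, the smallest unadjusted p belonged to *slc8a1a* (0.0212) and *ryr2a* (0.0432), and neither remained after adjustment (edgeR adjusted p = 0.724 for both). For *atp2a2b* the age estimate was 0.17 (SE 0.23, edgeR adjusted p = 0.834), and its interaction with genotype had an unadjusted p of 0.903.

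**Figure D4:**
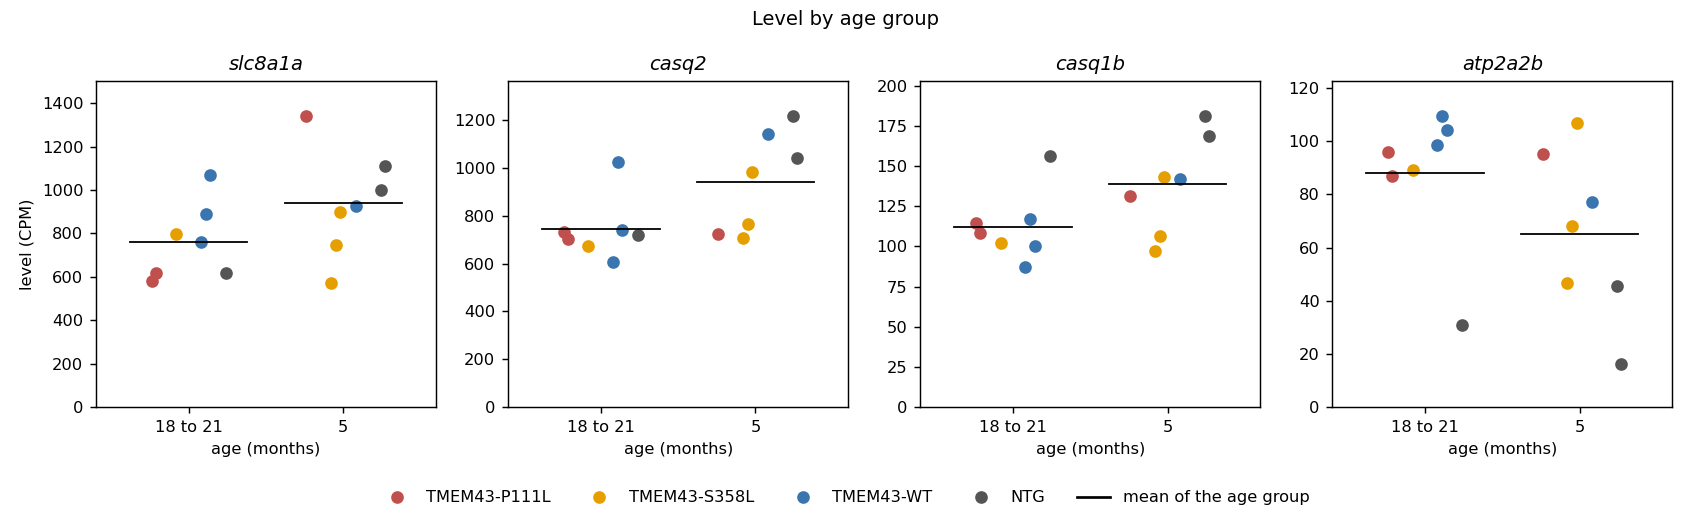
Level in CPM (vertical axes from 0) of *slc8a1a*, *casq2*, *casq1b* and *atp2a2b* in libraries of 18 to 21 months and of 5 months, coloured by group, with a line for the mean of each age group. The age groups overlap for each gene, and the NTG points are the lowest of *atp2a2b* and the highest of *casq1b* at both ages.

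The wider calcium handling list held 88 further genes found in the table, of which 62 could be tested. Those that edgeR called in a comparison were junctophilins, the histidine-rich calcium binding protein and a calcium channel subunit. In TMEM43-P111L against NTG, 1 of 62 was higher and none lower. In TMEM43-S358L, 1 was lower and none higher. In TMEM43-WT, 1 was higher and 2 were lower. Of all genes, 7.59%, 6.15% and 8.34% were called in TMEM43-P111L, TMEM43-S358L and TMEM43-WT. Between lines, 1 of 62 was higher in TMEM43-S358L than in TMEM43-WT, beside 1.62% of all genes called. Against TMEM43-WT, 1 was higher in TMEM43-P111L, beside 0.826% of all genes called. There DESeq2 called 2 higher, *jph2* and *sln*, the latter listed as a SERCA regulator. *sln* averaged 0.976 CPM in TMEM43-P111L and 0.0864 CPM in TMEM43-WT, with at most 1.27 CPM in any library. It is named after its values were seen. In TMEM43-P111L against TMEM43-S358L edgeR called 0, beside 1.04% of all genes, and DESeq2 called 0. In that comparison 5 of 62 had an unadjusted p under 0.05 in edgeR, beside 9.57% of all genes. By age edgeR called 0, beside 0.969% of all genes, and 11 of 62 had an unadjusted p under 0.05, beside 13.5% of all genes. DESeq2 called 3 of the 62 lower at 18 to 21 months and none higher. Of the 17328 genes to which it gave an adjusted p, it called 563 by age. Among the 3 were *fkbp1b*, whose mammalian product binds the ryanodine receptor, and *tmem38a*, a cation channel of the sarcoplasmic reticulum. Both are named here after their values were seen. The median log2 fold change of the 62 genes against NTG was -0.06, -0.04 and -0.06 in TMEM43-P111L, TMEM43-S358L and TMEM43-WT.

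*jph2* encodes the junctophilin of the heart, which holds the sarcoplasmic reticulum against the plasma membrane, and its level set TMEM43-WT apart. It had 112, 86.2 and 84.3 CPM in TMEM43-P111L, 50.9, 56.0, 71.8 and 53.4 CPM in TMEM43-S358L, and 37.0, 27.3, 28.1 and 44.8 CPM in TMEM43-WT, against 104, 68.9 and 75.9 CPM in NTG. All TMEM43-WT libraries were below all others. The log2 fold change was -1.27 in TMEM43-WT against NTG (SE 0.21, edgeR adjusted p = 0.00274) and 1.45 in TMEM43-P111L against TMEM43-WT (SE 0.21, edgeR adjusted p = 0.00260). In TMEM43-S358L it was -0.52 against NTG and 0.76 against TMEM43-WT (edgeR adjusted p = 0.158 and 0.0724), and DESeq2 called it higher than in TMEM43-WT. Each of the 2 *jph2* calls held in 12 of 14 alternative settings, and with libraries of 5 months only the edgeR adjusted p was 0.208 for TMEM43-WT against NTG and 0.503 for TMEM43-P111L against TMEM43-WT.

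*jph1b*, a junctophilin gene of the type known from mammalian skeletal muscle, had 42.6, 22.2 and 20.5 CPM in TMEM43-P111L and 21.6, 19.3, 24.5 and 23.5 CPM in TMEM43-WT, against 15.2, 9.78 and 9.84 CPM in NTG. Its log2 fold change against NTG was 1.29 in TMEM43-P111L (SE 0.29, edgeR adjusted p = 0.0142) and 0.94 in TMEM43-WT (SE 0.27, edgeR adjusted p = 0.0422). The call held in 9 of 13 alternative settings in TMEM43-P111L and in 6 of 14 in TMEM43-WT. In TMEM43-P111L it was lost without NTG replicate 3 (edgeR adjusted p = 0.0573) or TMEM43-P111L replicate 2 (0.0628). In TMEM43-WT, leaving out NTG replicate 3 (0.146) or 4 (0.111) ended the call, and so did leaving out any 1 of the TMEM43-WT libraries, replicates 1, 4, 5 and 6 (0.0603, 0.0561, 0.0975 and 0.0788). In TMEM43-S358L *jph1b* lay at 11.8 to 20.2 CPM (log2 fold change 0.53, edgeR adjusted p = 0.249).

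*hrc*, whose product binds calcium in the store and acts on both SERCA2 and triadin in mammals, had 85.2, 108, 77.0 and 85.4 CPM in TMEM43-S358L and 132, 84.5, 108 and 90.5 CPM in TMEM43-WT, against 247, 165 and 195 CPM in NTG. Both lines lay below NTG in every library. The log2 fold change was -1.19 in TMEM43-S358L (SE 0.25, edgeR adjusted p = 0.0129) and -0.96 in TMEM43-WT (SE 0.25, edgeR adjusted p = 0.0278), and the call held in 11 of 14 alternative settings in TMEM43-S358L and in 8 of 14 in TMEM43-WT. Without NTG replicate 2 both were lost (edgeR adjusted p = 0.0574 and 0.117), as was that of TMEM43-WT without TMEM43-WT replicate 4, 5 or 6 (0.0739, 0.0623 and 0.0659). TMEM43-P111L, with 229, 98.5 and 138 CPM, overlapped NTG (log2 fold change -0.38, edgeR adjusted p = 0.422). *cacna2d1a*, an auxiliary subunit of voltage-gated calcium channels, had 52.2, 47.9, 83.8 and 69.6 CPM in TMEM43-S358L against 24.0, 31.3, 32.1 and 38.1 CPM in TMEM43-WT. That is a log2 fold change of 1.01 (SE 0.19, edgeR adjusted p = 0.0104), with NTG at 41.0 to 47.3 CPM between them. The call held in 12 of 15 alternative settings, with an edgeR adjusted p of up to 0.464 in libraries of 5 months only.

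**Figure D5:**
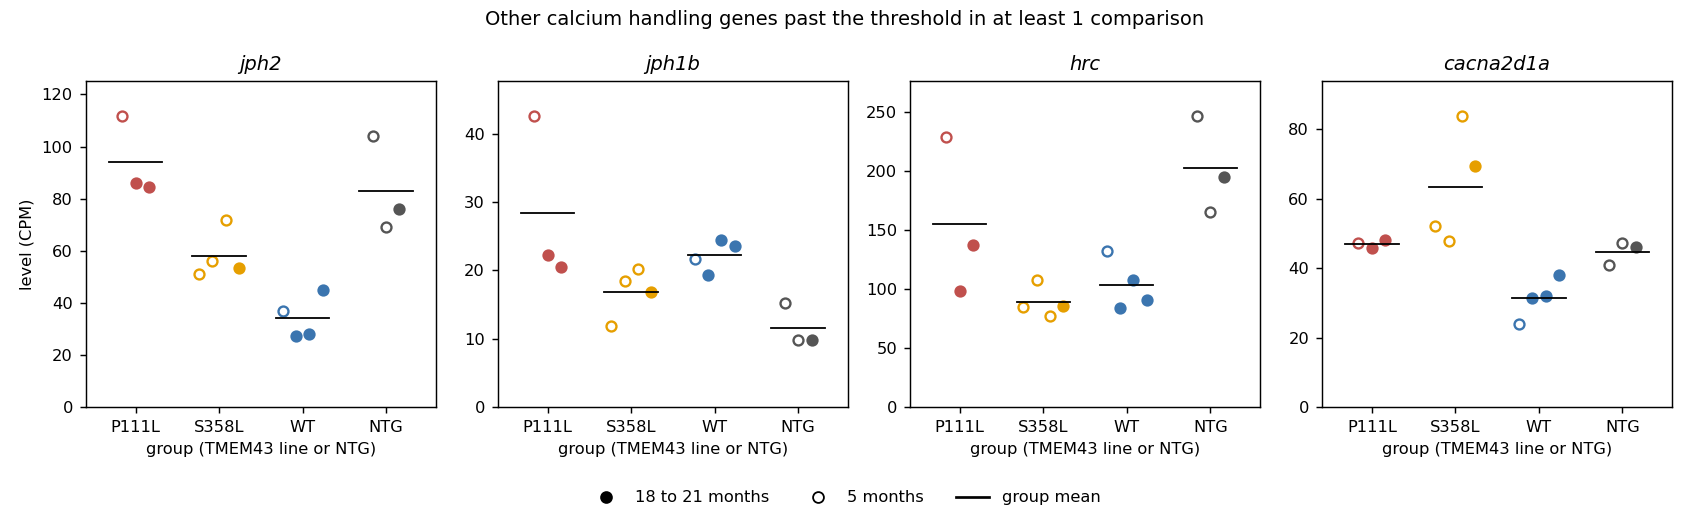
Level in CPM (vertical axes from 0) of *jph2*, *jph1b*, *hrc* and *cacna2d1a* in every library of the 3 TMEM43 lines and NTG; filled points are 18 to 21 months, open points 5 months and lines group means. *jph2* is lowest in TMEM43-WT, at 27.3 to 44.8 CPM, and *hrc* is highest in NTG apart from 1 TMEM43-P111L library.

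Other copies of the same families were present at lower levels per kilobase than the main cardiac genes. *ryr1b* averaged 3.64 CPM per kilobase and *ryr3* 3.47, against 12.5 for *ryr2b*, and *ryr1a* averaged 0.0320. The skeletal pump *atp2a1* averaged 0.566 CPM per kilobase, *atp2a3* 1.71 and *casq1a* 0.915. None of these 6 genes was called in any of the 7 comparisons, and *atp2a1l*, *slc8a4a* and *slc8a4b* had too few reads to be tested.

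By role, edgeR called none of the 4 inositol trisphosphate receptor genes, 4 plasma membrane calcium pumps, 12 calmodulin and CaM kinase II genes, 5 genes of store-operated entry or 7 genes of mitochondrial calcium uptake that could be tested in any of the 7 comparisons. Over these 32 genes and 7 comparisons, 17 of 224 tests (7.59%) had an unadjusted p under 0.05. Over all tested genes in the same comparisons it was 16.7%, and the share of all genes called was 0.826% to 8.34% by comparison. These roles were put together because none of their genes was called. A lower share than over all genes thus follows in part from that choice, and no conclusion is drawn from it. DESeq2 called *itpr2*, an inositol trisphosphate receptor, lower in TMEM43-P111L than in NTG (edgeR log2 fold change -1.08, SE 0.34, edgeR adjusted p = 0.0667). It called *stim1a*, a calcium sensor of the store, higher in TMEM43-WT than in NTG (edgeR log2 fold change 0.80, SE 0.27, edgeR adjusted p = 0.0742). Both are named after their values were seen. The genes of mitochondrial uptake had estimates below 0 for 5 of 7 in TMEM43-P111L, 7 of 7 in TMEM43-S358L and 7 of 7 in TMEM43-WT, with median log2 fold changes of -0.38, -0.39 and -0.32 against NTG, and 1, 0 and 0 of them at an unadjusted p under 0.05. Of all tested genes, 50.2%, 49.6% and 50.8% had estimates below 0 in these comparisons. The directions of this role are given after its values were seen, and the 3 comparisons used the same NTG libraries. Of its genes, *mcu*, *micu3a* and *micu3b* averaged 0.647, 1.92 and 2.25 CPM over all libraries. Of the 7 calcium channel subunit genes tested, *cacna2d1a* was the 1 that edgeR called.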

How the data were processed

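Ventricles were dissected and pooled per library, and poly-A RNA was sequenced as single-end reads from stranded libraries. The deposited values are expected counts: per the submitters' processing notes and the study's methods, the authors trimmed reads with cutadapt 2.5, aligned them with STAR 2.7.2b to GRCz11 and counted them per gene with featureCounts 1.6.4. Fractional values show that some reads were split, and the strand setting is not given in the sources used here. The genes *casq1b* and *pln* overlap other annotated genes on the opposite strand. Of the 14 libraries, the deposited value was a whole number in 0 for *casq2*, 1 for *slc8a1a*, 4 for *casq1b* and 8 for *pln*. For *trdn* and *slc8a1b* it was whole in all 14. Coordinates and exon lengths are annotation columns of the same table.

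The expected counts were rounded and fitted in edgeR 4.0.16 with quasi-likelihood F tests (R 4.3.3, limma 3.58.1): low-count filter by genotype, TMM scaling, robust fit, all 14 libraries, genotype as the factor, or genotype plus age group (split at 12 months) for age. Genes were called at an adjusted p (Benjamini-Hochberg, over all 17437 genes tested) under 0.05 with a log2 fold change of 0.05 or more in size. Intervals are 95%. Levels are CPM with TMM library sizes, and a value counted as whole within 1e-09. The scripts were tested on simulated data. Alternatives were RLE size factors, DESeq2 1.42.0, no count filter, the replicate number as a block, age as a covariate or each age alone, age in months as a number, no genotype covariate, and each library left out. All 10 genes were named, with genes of the calcium handling list that were called in a comparison (at most the 3 of smallest p per role) and other copies of the 10 genes, and of the cell type marker lists the summed levels. The 10 genes and the lists were chosen with earlier results of these data known. Of 92 genes on the calcium handling list 88 were matched, 4 of them by gene ID through a RefSeq gene table. The study describes the fish as 5 months old, while the sample labels, used here, give 5 or 18 to 21 months. One gene that DESeq2 called by age is not reported here.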

Additional observations from a re-analysis of the deposited data

Results flagged for a closer look

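*ryr2a* in TMEM43-WT replicate 1, the 1 library of this line of 5 months, was at 0.569 CPM, apart from the other TMEM43-WT libraries, of 18 to 20 months, at 1.31 to 1.47 CPM, and was singled out as a library far from the rest of its group. Chance does so in about 1 of 20 groups, and the value rests on 10 reads. In NTG, *ryr2a* was at 1.59 CPM at 21 months and at 0.229 and 0.186 CPM at 5 months, and in TMEM43-S358L at 1.32 CPM at 19 months and at 0.865, 1.75 and 0.986 CPM at 5 months. In TMEM43-P111L it was at 1.43 and 0.0866 CPM at 20 and 19 months and at 2.5 CPM at 5 months.

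*cacna2d1a* and *jph2* were singled out because the effect of a TMEM43 variant and of TMEM43-WT relative to the same controls differed by a direct test. The log2 difference was 1.01 for *cacna2d1a* in TMEM43-S358L against TMEM43-WT, and 1.45 for *jph2* in TMEM43-P111L against TMEM43-WT.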

How the results depend on the processing

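The number of the 10 genes called was unchanged in 96 of 104 recomputed settings. This count does not register a change of gene. In TMEM43-S358L against NTG without TMEM43-S358L replicate 3, it stayed at 1, but the gene called was *casq1b* and no longer *atp2a2b*. In TMEM43-WT against NTG (1 called) it was 0 with libraries of 5 months only, and ranged over 1 to 2 when each library was left out. In TMEM43-P111L against NTG (1 called) it was 0 with libraries of 5 months only. In TMEM43-S358L against NTG (1 called) it was 2 with age group as a covariate, 0 with libraries of 5 months only, and ranged over 0 to 1 when each library was left out. With 1 library in an arm, that library was assumed to vary like the others. With the replicate number as a block, the count in TMEM43-WT against NTG was 0 (*atp2a2b*, log2 fold change 1.93, edgeR adjusted p = 0.0998) and the counts of the other comparisons did not change. Over all 17437 genes that block left 26 calls for TMEM43-WT, 658 for TMEM43-P111L and 432 for TMEM43-S358L against NTG. Of 13 same-numbered pairs, 4 correlated above 0.1 (range -0.23 to 0.26), and 3 of 12 libraries correlated best with their own number. Age differed within some of these pairs, so the correlations cannot decide whether same-numbered libraries were handled together. Some TMEM43-WT libraries had no partner of the same number.

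Of 70 estimates (10 genes in 7 comparisons), 35 changed sign in at least 1 setting, none of them called. Of 269 recomputed values of genes called or at an unadjusted p under 0.05, 231 kept their side of the threshold, 35 lost their call, 3 gained one and none reversed. Over all genes, edgeR called 1324, 1073 and 1454 against NTG for TMEM43-P111L, TMEM43-S358L and TMEM43-WT, and DESeq2 called 2106, 1910 and 2334. With 5 months only edgeR called 3, 90 and 8, and with 18 to 21 months only 305, 61 and 377. RLE size factors moved the median of all genes by at most 0.011 (log2). Without division by exon length, *slc8a1a* ranked 3 and *casq2* 4 (4 and 3 with it), and *ryr2b* ranked 5 and *casq1b* 6 (6 and 5 with it). Depth limits *ryr2a* and *slc8a1b*, with 63 and 15 reads at most.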
